A study of Mus musculus with 12 samples.

Results

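The Fc receptor and ITAM signaling genes described here are Fcer1g, Tyrobp, Syk, Btk, Plcg2, Fcgr2b, Fcgr3 and Fcrla. These 8 genes were chosen by name from the 21754 in the count table, with earlier results of these data known. They were followed in 12 bulk RNA-sequencing libraries (SCRB-seq, a 3′ tag protocol for small cell numbers) of 4 populations sorted from bone marrow (BM) of untreated adult C57BL/6 mice of both sexes. The populations were Siglec-H-negative pre-cDCs (precursors of conventional dendritic cells), Siglec-H-positive precursors with low CCR9 and low B220 (lo-lo), Siglec-H-positive precursors with low CCR9 and high B220 (lo-hi), and plasmacytoid dendritic cells (pDCs) with high CCR9 and high B220, with 3 libraries each. According to the methods, BM was depleted of cells bearing lineage markers of T, B and NK cells, neutrophils and erythroid cells, and BM of several mice could be pooled for sorting, whereas the legend speaks of 3 individual mice, so the p-values measure the spread between these libraries. Total counts per library lay between 1801463 and 5995971.

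The assignment of libraries to populations decides every direction given here. Wells A1, A5 and A9 were taken as pre-cDCs, A2, A6 and A10 as lo-lo, A3, A7 and A11 as lo-hi, and A4, A8 and A12 as pDCs, numbered 1 to 3 in that order. These wells come from a match of the columns to the samples named in the source data of the study, and they differ from the deposited labels in 8 of 12 wells. In the match, the order of 28 transcription factor genes within a library (378 gene pairs) was discordant in 0 pairs for the matched well and in at least 7 pairs for the next best well, and none of the 8 genes was among the 28. By the deposited labels, edgeR's quasi-likelihood test called 0 of the 8 genes across the 4 groups, with a smallest adjusted p of 1.0 and a smallest unadjusted p of 0.054. None of the 8 had an unadjusted p under 0.05 in that test and 1 did in a contrast between labelled groups, DESeq2 also called 0 of the 8, and the share of all genes called by label was 0.0%. All values below are by matched well.

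By the matched wells, 8 of 9 pDC markers were higher in pDCs than in pre-cDCs, beside 10.6% of all genes. Of the cDC lineage markers, 8 of 8 were lower, beside 11% of all genes. These counts are not an independent check of the wells. Siglec-H and CCR9, encoded by 2 of the pDC markers, were part of the sort gate. Tcf4, Zbtb46, Batf3, Id2, Spi1 and Irf4 are transcription factor genes, the kind used in the match. Markers of other cells were present to different degrees. The summed level of 8 neutrophil markers lay between 3241 and 20794 CPM (counts per 1e+06, scaled by TMM), 6 erythroid or platelet markers summed to between 2528 and 9198 CPM, and 6 mast cell or basophil markers reached 841 CPM in A1 and 736 CPM in A5 against 45.4 to 191 CPM in the other 10 libraries. The 6 NK cell markers summed to 3.86 to 34.2 CPM, the 5 T cell markers to 8.64 to 29.0 CPM and the 7 monocyte or macrophage markers to 1906 to 3206 CPM. Most of the last sum was Ly6c2, which is also a pDC marker, and 4 of the 7 were lower in pDCs than in pre-cDCs, among them F13a1 (97.0 CPM on average in pre-cDCs and 9.48 in pDCs), Cd14 (7.86 and 2.04) and Adgre1 (3.05 and 0.574). The 4 libraries numbered 3 had lower Xist (27.3 to 57.0 CPM) than the other 8 (221.6 to 583 CPM), in all 4 populations. With the Y-linked genes Ddx3y, Eif2s3y, Uty and Kdm5d added, the sum was 98.5 to 196 CPM there and 225 to 590 CPM elsewhere. The smallest sum in the libraries numbered 3 thus exceeded their largest Xist level. The sex of the mice behind each library is not given in the sources used here, and a difference of sex was not tested. In bulk RNA, fewer cells of a type and less RNA per cell cannot be told apart.

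Immunoreceptors of the Fc receptor family carry no enzyme of their own. Many of them signal through small adaptors, among them the Fc receptor gamma chain (Fcer1g) and DAP12 (Tyrobp), whose ITAM tyrosines are phosphorylated by SRC family kinases and then bind the kinase SYK. SYK passes the signal through linker proteins to TEC family kinases such as BTK and to phospholipase C gamma 2 (Plcg2), which raises calcium, whereas the inhibitory receptor FcγRIIB (Fcgr2b) carries an ITIM that recruits phosphatases. In pDCs, Siglec-H pairs with DAP12, and crosslinking of ITAM-coupled receptors is known to dampen type I interferon production.

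Fcrla, Fcgr2b, Fcgr3 and Fcer1g lie together on chromosome 1 (GRCm38), all on the minus strand, within 316.8 kb: Fcrla (170917576 to 170927583), Fcgr2b (170958617 to 170976547), Fcgr3 (171051174 to 171064935) and Fcer1g (171229572 to 171234365). Although neighbours, they did not share a direction: Fcrla was higher and the other 3 lower in pDCs than in pre-cDCs. Tyrobp lies on chromosome 7 (30413760 to 30417585), Syk on chromosome 13 (52583173 to 52648792), Btk on chromosome X (134542336 to 134583570) and Plcg2 on chromosome 8 (117498291 to 117635142). The Fcgr3 transcripts share 166 of 1627 stretches of 50 bases with Fcgr2b (10.2%), but none of those within their last 500 bases, where a 3′ tag protocol counts. The Fcgr2b transcripts share 249 of 3708 stretches (6.72%) with Fcgr3 and other genes, 33 of them in the last 500 bases, so some Fcgr2b reads could be split or dropped. Promoters (250 bases before to 50 after the start site, RefSeq, GRCm38.p6) were found for 7 of the 8 genes. The promoters below belong to 2 genes that were higher in pDCs (Fcrla and Syk, the first of 2 promoters) and 2 that were lower (Fcgr2b and Fcer1g). Capitals mark GAGGAA, the core bound by PU.1-type ETS factors, and the E-box letters CAGCTG and CACCTG, each searched on both strands.
Fcrla, chr1:170927534-170927833, minus strand: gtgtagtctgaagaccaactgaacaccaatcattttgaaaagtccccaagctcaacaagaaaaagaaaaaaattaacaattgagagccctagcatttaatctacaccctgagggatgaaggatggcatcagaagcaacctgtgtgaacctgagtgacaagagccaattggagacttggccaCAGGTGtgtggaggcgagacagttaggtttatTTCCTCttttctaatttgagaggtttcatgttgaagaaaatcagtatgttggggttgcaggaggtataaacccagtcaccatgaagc
Syk, chr13:52583187-52583486, plus strand: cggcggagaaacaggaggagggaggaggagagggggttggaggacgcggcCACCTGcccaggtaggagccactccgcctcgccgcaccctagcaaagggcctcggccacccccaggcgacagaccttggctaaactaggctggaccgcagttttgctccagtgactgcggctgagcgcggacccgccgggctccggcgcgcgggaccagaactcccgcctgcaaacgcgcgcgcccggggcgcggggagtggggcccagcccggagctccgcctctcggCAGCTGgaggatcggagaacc
Fcgr2b, chr1:170976022-170976321, minus strand: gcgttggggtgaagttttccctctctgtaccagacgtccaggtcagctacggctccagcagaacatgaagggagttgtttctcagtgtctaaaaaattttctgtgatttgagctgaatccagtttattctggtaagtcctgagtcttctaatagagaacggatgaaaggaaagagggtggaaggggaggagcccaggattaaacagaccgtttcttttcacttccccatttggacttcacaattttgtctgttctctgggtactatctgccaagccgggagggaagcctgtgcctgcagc
Fcer1g, chr1:171234300-171234599, minus strand: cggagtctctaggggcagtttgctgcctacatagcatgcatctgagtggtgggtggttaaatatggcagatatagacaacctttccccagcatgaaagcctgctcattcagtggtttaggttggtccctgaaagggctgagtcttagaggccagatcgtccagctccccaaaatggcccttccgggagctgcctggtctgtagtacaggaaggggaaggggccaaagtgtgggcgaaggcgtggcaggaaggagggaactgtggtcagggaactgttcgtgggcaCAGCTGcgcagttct
GAGGAA or its reverse complement was in the promoters of 4 of the 7 genes and in 28.3% of 32851 promoters. It was in 5 of their 9 promoters, where the 2 of Fcgr3 overlap and hold the same site. CAGCTG was in 2 of the 9 and in 16.3% of all promoters, and CACCTG in 4 of the 9 and in 20.2%. The Fcgr2b promoter held none of these letters.

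Across the 4 populations, 5 of the 8 genes passed the cutoff of an adjusted p of 0.01 (edgeR, quasi-likelihood F-test), namely Fcrla, Fcgr2b, Syk, Tyrobp and Fcer1g, beside 19.8% of the 15293 genes tested. All 8 passed the filter on low counts. Between the end populations, 6 of 8 differed, with Tyrobp, Syk and Fcrla higher in pDCs (10.6% of all genes were higher) and Fcer1g, Fcgr2b and Fcgr3 lower (11% were lower, and 21.6% differed in either direction). In the 12 removals of 1 library, the Fcgr3 call held in 4 and the Fcer1g call in 8. The calls of Tyrobp, Syk, Fcrla and Fcgr2b held in all 12. Without wells A1 and A5, where 1 pre-cDC library is left, 4 of 8 differed beside 17.6% of all genes, Tyrobp and Fcgr3 no longer passing. Between lo-hi cells and pre-cDCs, 5 of 8 differed (13.1% of all genes), with Tyrobp, Syk and Fcrla higher (6.42%) and Fcer1g and Fcgr2b lower (6.72%). Between pDCs and lo-lo cells, 3 of 8 differed (13.8%), with Tyrobp and Fcrla higher in pDCs (6.24%) and Fcgr2b lower (7.53%). Of the steps between neighbouring populations, the step from lo-lo to lo-hi called Fcrla alone (5.4% of all genes). The step from pre-cDCs to lo-lo called 0 of 8 (3.13%) and the step from lo-hi to pDCs also called 0 of 8 (0.994%), where 3 genes each had an unadjusted p under 0.05 in edgeR and DESeq2 called 0.

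**Figure D1:**
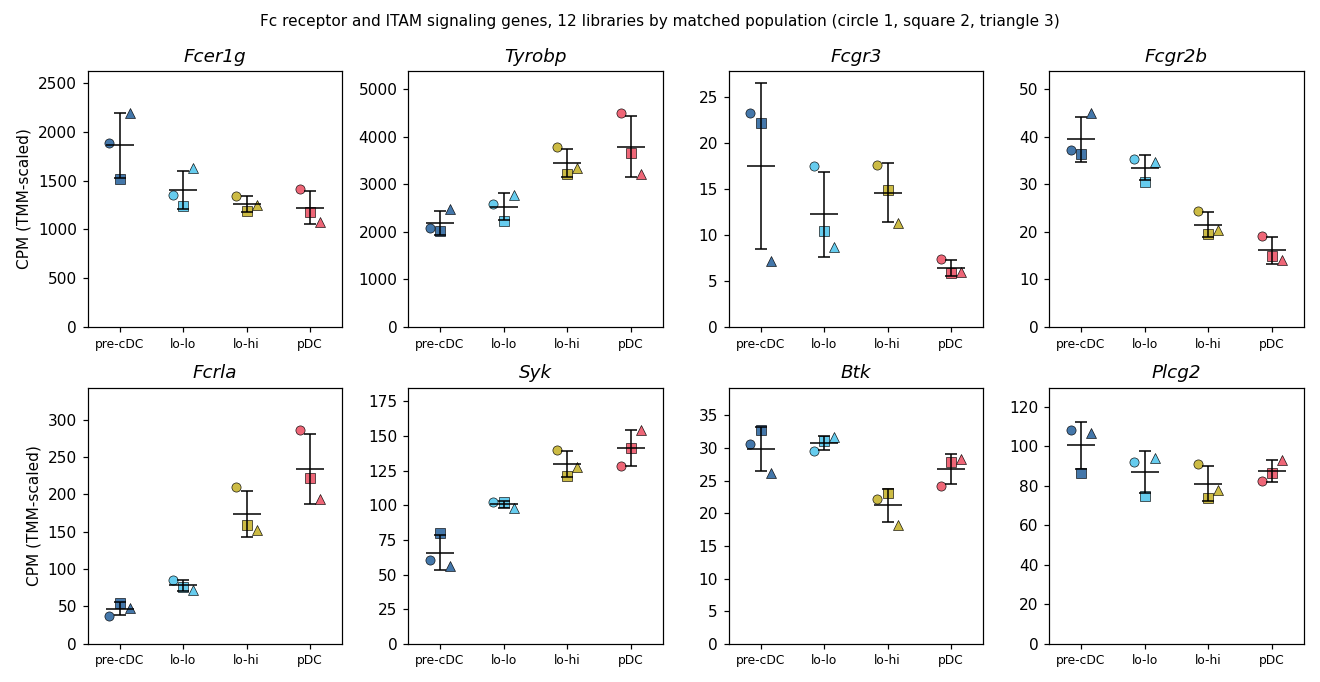
CPM (TMM-scaled, linear axis from 0) of each gene in the 12 libraries, by matched population; circles, squares and triangles are the libraries numbered 1, 2 and 3, and horizontal lines with bars are the mean and SD. Fcrla, Syk and Tyrobp are highest in pDCs, Fcgr2b is lowest there, and the pre-cDC library A9 lies far below A1 and A5 for Fcgr3 alone.

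Among the receptors, Fcgr2b, the inhibitory low-affinity IgG receptor, was 2.41-fold lower in pDCs than in pre-cDCs. It stood at 37.2, 36.2 and 44.8 CPM in pre-cDCs, 35.3, 30.4 and 34.6 in lo-lo, 24.5, 19.5 and 20.4 in lo-hi and 19.2, 14.8 and 14.2 in pDCs. No 2 neighbouring populations overlapped. The log2 difference of pDCs from pre-cDCs was -1.27 (SE 0.18, edgeR adjusted p = 4.85e-06) and that from lo-lo cells was -1.03 (SE 0.18, adjusted p = 0.000123). The steps themselves did not pass the cutoff, the nearest being lo-hi against lo-lo (-0.62, SE 0.18, adjusted p = 0.0324). An annotated antisense gene, Gm38204, overlaps Fcgr2b, and whether counting used the strand is not given in the sources used here.

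Fcgr3, the activating low-affinity IgG receptor that needs the gamma chain, had the least even libraries of the set. It stood at 23.2, 22.1 and 7.13 CPM in pre-cDCs, 17.5, 10.5 and 8.71 in lo-lo, 17.6, 14.9 and 11.3 in lo-hi and 7.42, 5.87 and 6.01 in pDCs. The pre-cDC library A9 lay within the range of the pDCs, whereas A1 and A5 were the highest of all 12. The F-test over the populations did not pass the cutoff (edgeR adjusted p = 0.039), and pDCs were lower than pre-cDCs by 1.39 on the log2 scale (-1.39, SE 0.37, adjusted p = 0.00788). The call was lost in 8 of 12 removals of 1 library, pDC, lo-lo and lo-hi libraries among them, with adjusted p up to 0.0633. Without A1 and A5, which were left out after their values were seen, A9 alone stands for the pre-cDCs, its spread is taken from the other populations and the difference was -0.13 (SE 0.43, adjusted p = 0.855). Without the 4 libraries numbered 3 it was -1.73 (adjusted p = 3.11e-05). A1 and A5 were also the libraries with the high basophil markers, Mcpt8, a basophil protease, reaching 251 and 233 CPM there against 34.6 CPM in A9. The 8 neutrophil markers summed to 11728, 10824 and 4443 CPM in pre-cDCs, 18256, 5321 and 5868 in lo-lo, 20794, 12388 and 9731 in lo-hi and 6612, 5201 and 3241 in pDCs. Within each population their highest library was also that with the most Fcgr3. The gene with the pattern most like Fcgr3 over the 12 libraries was Pf4, a platelet chemokine (r = 0.939), followed by Hp, haptoglobin (r = 0.917). The part of these other cells in the Fcgr3 values was not tested.

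**Figure D2:**
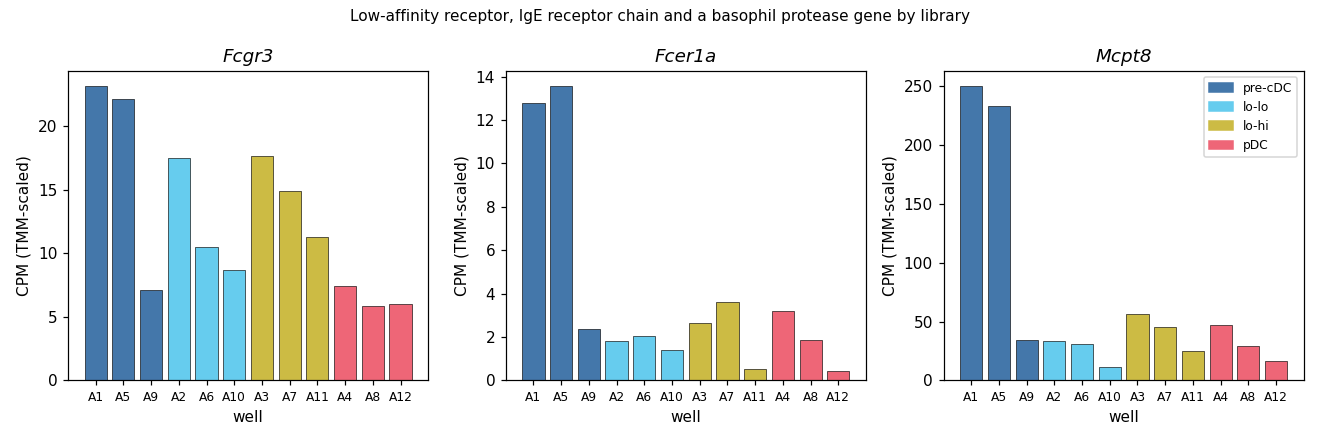
CPM (TMM-scaled) of Fcgr3, of Fcer1a (the IgE-binding chain of the high-affinity IgE receptor) and of the basophil gene Mcpt8 in each well, coloured by matched population. All 3 genes are highest in A1 and A5, and the third pre-cDC library, A9, holds 34.6 CPM of Mcpt8 against 251 and 233 in A1 and A5.

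Fcrla, an intracellular Fc receptor-like protein known from B cells, showed the largest difference of the 8 genes, 5.03-fold between pDCs and pre-cDCs. It stood at 37.8, 54.8 and 48.2 CPM in pre-cDCs, 86.0, 76.6 and 72.2 in lo-lo, 209, 158 and 153 in lo-hi and 286, 222 and 194 in pDCs. Pre-cDCs, lo-lo and lo-hi did not overlap, while lo-hi and pDCs did. The log2 difference of pDCs from pre-cDCs was 2.33 (SE 0.19, edgeR adjusted p = 3.7e-10), and the largest of the 3 steps was that from lo-lo to lo-hi (1.15, SE 0.18, adjusted p = 8.46e-05). The first step was 0.75 (SE 0.19, adjusted p = 0.0147) and the last 0.43 (SE 0.17, adjusted p = 0.304). The 9 B cell markers summed to 42.5 to 65.9 CPM in pre-cDCs, 43.5 to 61.0 in lo-lo, 49.7 to 75.8 in lo-hi and 27.2 to 39.1 in pDCs.

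The adaptors differed in opposite directions. Tyrobp, which encodes DAP12, stood at 2078, 2022 and 2478 CPM in pre-cDCs, 2576, 2226 and 2780 in lo-lo, 3775, 3222 and 3345 in lo-hi and 4488, 3664 and 3220 in pDCs. Every library of lo-hi cells and pDCs was above every library of lo-lo cells and pre-cDCs. Tyrobp was 1.73-fold higher in pDCs than in pre-cDCs (log2 0.79, SE 0.15, edgeR adjusted p = 0.000131) and 1.5-fold higher than in lo-lo cells (log2 0.59, SE 0.15, adjusted p = 0.00432). Without A1 and A5 the difference from pre-cDCs, then 1 library, was 0.60 (adjusted p = 0.0156). The call against lo-lo cells was lost in 4 of 12 removals of 1 library (A2, A6, A4 or A8).

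Fcer1g, the Fc receptor gamma chain, stood at 1880, 1518 and 2187 CPM in pre-cDCs, 1351, 1240 and 1624 in lo-lo, 1343, 1190 and 1246 in lo-hi and 1416, 1174 and 1080 in pDCs. The 3 pre-cDC libraries were above every lo-hi and pDC library, and A5 lay within the range of lo-lo. It was 1.52-fold lower in pDCs than in pre-cDCs (log2 -0.61, SE 0.15, edgeR adjusted p = 0.00348) and 1.48-fold lower in lo-hi cells (log2 -0.56, SE 0.15, adjusted p = 0.00944). The lo-hi call was lost in 10 of 12 removals of 1 library (adjusted p up to 0.0543) and the pDC call in 4 of 12 (adjusted p up to 0.0323). Both calls were also lost in the fits of only the 6 libraries compared. The call across the populations (adjusted p = 0.00913) was near the cutoff and held in 3 of the 12 removals of 1 library, with adjusted p up to 0.0734, and without the libraries numbered 3 the pDC difference was -0.38 (adjusted p = 0.0824).

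Among the enzymes, Syk, the kinase that binds phosphorylated ITAMs, was 2.16-fold higher in pDCs than in pre-cDCs. It stood at 60.7, 80.0 and 56.4 CPM in pre-cDCs, 102, 102 and 97.8 in lo-lo, 140, 121 and 128 in lo-hi and 129, 141 and 154 in pDCs. Only lo-hi and pDCs overlapped. The log2 difference was 1.11 (SE 0.16, edgeR adjusted p = 4.84e-06) for pDCs and 0.99 (SE 0.16, adjusted p = 4.82e-05) for lo-hi cells. Lo-lo cells stood 0.63 above pre-cDCs (SE 0.16, adjusted p = 0.0174), short of the cutoff.

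Btk, the TEC family kinase, ranged from 18.3 to 32.7 CPM and did not pass across the populations (edgeR adjusted p = 0.0958). Its lo-hi libraries (18.3 to 23.1 CPM) were the lowest and overlapped with none of the other populations, although the log2 difference from lo-lo, -0.53 (SE 0.18), had an adjusted p of 0.065. Between pDCs and pre-cDCs the difference was -0.16, with a 95% interval from -0.50 to 0.17. Plcg2, the phospholipase, ranged from 73.8 to 108 CPM in the 12 libraries, with an adjusted p of 0.463 across the populations. Its difference between pDCs and pre-cDCs was -0.21, with a 95% interval from -0.52 to 0.10.

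**Figure D3:**
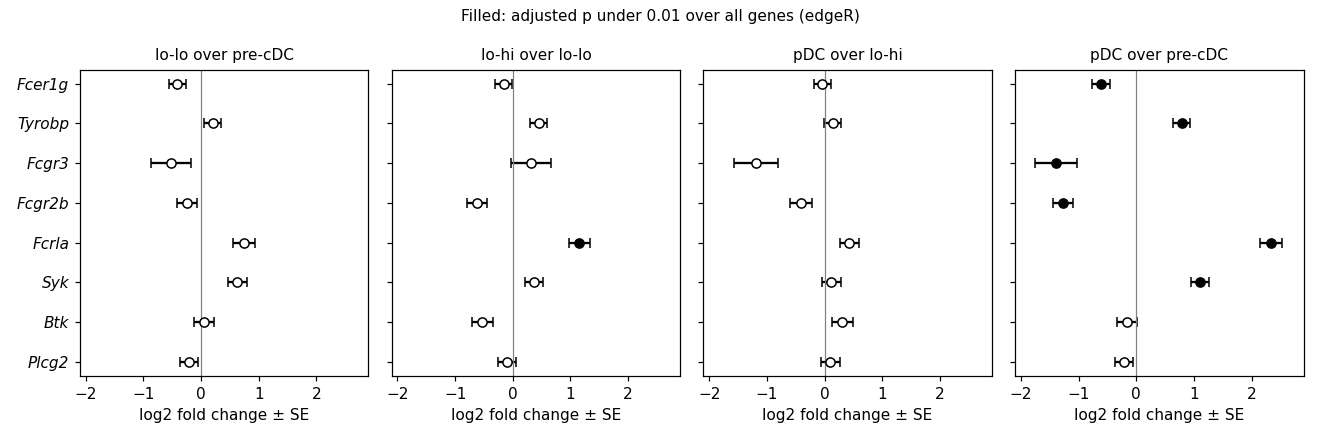
Log2 fold changes with their SE (bars) for each gene, in the 3 steps between neighbouring populations and between the end populations, from the edgeR fit of all 12 libraries; filled points passed the adjusted p cutoff of 0.01. Fcrla alone is filled in the step from lo-lo to lo-hi (1.15), none in the other 2 steps, and 6 genes are filled between pDCs and pre-cDCs.

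Over the 12 libraries, the genes most like each of the other members, by Pearson's r of log2 CPM among 7820 genes and as a description only, were Trappc1 (0.979) and Gm5560 (0.978) for Fcer1g, Rnaset2a and Smim14 (both 0.984) for Tyrobp, Prkca (0.989) and Tmem163 (0.987) for Syk and H2afz (0.982) and Nsmce1 (0.981) for Fcgr2b. For Fcrla they were Ctsl (0.99) and Cd300c (0.988), for Btk Ap2a2 (0.903) and Dnajc10 (0.876), and for Plcg2 Rps19-ps8 (0.95) and Gm19680 (0.926). The 12 points share 4 populations, so any gene with the same order of populations has a high r. Among the members themselves, r was 0.938 for Tyrobp and Fcrla, 0.92 for Syk and Fcrla and -0.904 for Fcer1g and Syk.

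The rest of the pathway was read from lists of 144 further genes in 10 roles, 140 of them in the table and 130 tested. Across the populations 59 of the 130 passed (45.4%, beside 19.8% of all genes). The lists were written with earlier results of these data known and hold genes of the sort gate, so this share is a description only. In the contrast of pDCs with pre-cDCs, counted over all 130, 31 were higher (10.6% of all genes) and 24 lower (11%). The median log2 difference was 0.02, beside 0.01 over all genes. Of the other Fc receptors, 4 of 7 tested passed, and all 4 were lower in pDCs. They included Fcgr1, the high-affinity IgG receptor (-3.50, SE 0.60, edgeR adjusted p = 4.74e-05), Fcrl1 (-2.71, SE 0.70, adjusted p = 0.00369) and Fcer1a (-2.11, SE 0.57, adjusted p = 0.00962). Fcgr1 had 50 counts in the pre-cDC libraries together and 6 in pDCs, and Fcrl1 had 21 and 4, so both were near the floor in pDCs. Fcer1a stood at 12.8 and 13.6 CPM in A1 and A5 and 2.38 in A9. Without A1 and A5 the Fcer1a difference was -0.17 (adjusted p = 0.901), that of Fcgr1 -2.50 (adjusted p = 0.0316) and that of Fcrl1 -3.00 (adjusted p = 0.0151), so that none of the 3 passed. Leaving out single libraries ended the Fcer1a call in 9 of 12 cases and the Fcrl1 call in 2 of 12. The remaining receptor of the 4, Fcgrt, had a smaller difference (-2.07, SE 0.20, edgeR adjusted p = 5.17e-09) at a higher level. It stood at 205 ± 35.4 CPM (SD, n = 3) in pre-cDCs and 49.1 ± 2.27 CPM in pDCs. Of the 7 monocyte or macrophage markers, of which Fcgr1 is 1, 4 were lower in pDCs as well (F13a1, Cd14 and Adgre1 above). The sum of all 7, mostly Ly6c2, was 2369 to 3206 CPM in pDCs and 2155 to 2486 CPM in pre-cDCs. The part of monocytes or macrophages in the lower Fc receptors, Clec7a and Card9 was not tested. Of the other ITAM or YxxM adaptors, 2 of 6 passed across the populations, Cd79b and Hcst (DAP10), neither between the end populations (adjusted p = 0.023 and 0.0678).

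Of the receptors that pair with ITAM adaptors or carry a hemITAM, 5 of 20 passed across the populations. Cd300lb (-3.51, SE 0.41) and Clec7a, encoding dectin-1 (-2.84, SE 0.27), were lower in pDCs, at 37.7 ± 6.80 CPM (SD, n = 3) in pre-cDCs and 5.37 ± 1.23 CPM in pDCs for Clec7a. Siglech, the DAP12 partner, was higher (3.14, SE 0.21), but Siglec-H was part of the sort gate. Its level was 312 ± 124 CPM in pre-cDCs, 864 ± 121 in lo-lo, 2106 ± 213 in lo-hi and 2750 ± 227 in pDCs.

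Of the SRC and SYK family kinases, 6 of 8 passed, with 3 higher and 1 lower in pDCs. Fyn was higher by 2.52 (SE 0.18, edgeR adjusted p = 7.36e-11), Src by 2.37 (SE 0.54, adjusted p = 0.00116) and Fgr by 2.07 (SE 0.19, adjusted p = 3.17e-09). Src was near the floor, with 8 counts in the pre-cDC libraries together and 59 in pDCs. Of the 4 other TEC family kinases, 0 passed in edgeR and 0 in DESeq2, and 0 had an unadjusted p under 0.05 in either. Of the linkers, 6 of 16 passed, led by Blnk, which joins SYK to BTK and phospholipase C (2.61, SE 0.19), Fyb (2.48, SE 0.25) and Pik3ap1 (1.83, SE 0.31). Blnk stood at 31.5 ± 9.46 CPM in pre-cDCs, 96.3 ± 8.35 in lo-lo, 170.0 ± 11.3 in lo-hi and 189 ± 23.9 in pDCs (SD, n = 3 each).

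Of the exchange factors and effectors, 13 of 29 passed, and between pDCs and pre-cDCs 9 were higher and 6 lower. The protein kinase C genes Prkca (3.32, SE 0.23) and Prkcb (2.52, SE 0.22) were higher and Card9, the adaptor downstream of dectin-1 and SYK, was lower (-2.27, SE 0.34). Of the inhibitory enzymes, 9 of 20 passed, with Sla2 higher in pDCs (2.89, SE 0.21) and Dok3 (-2.61, SE 0.28) and Ptpn12 (-2.19, SE 0.35) lower. Of the inhibitory receptors, 13 of 18 passed, with 8 higher and 4 lower in pDCs. Klra17, encoding Ly49Q (3.33, SE 0.22), Cd300lf (2.69, SE 0.25) and Lair1 (2.58, SE 0.17) were higher, a direction opposite to that of Fcgr2b. Ptprc, encoding CD45, was higher (0.90, SE 0.19), and its B220 form was part of the gate.

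**Figure D4:**
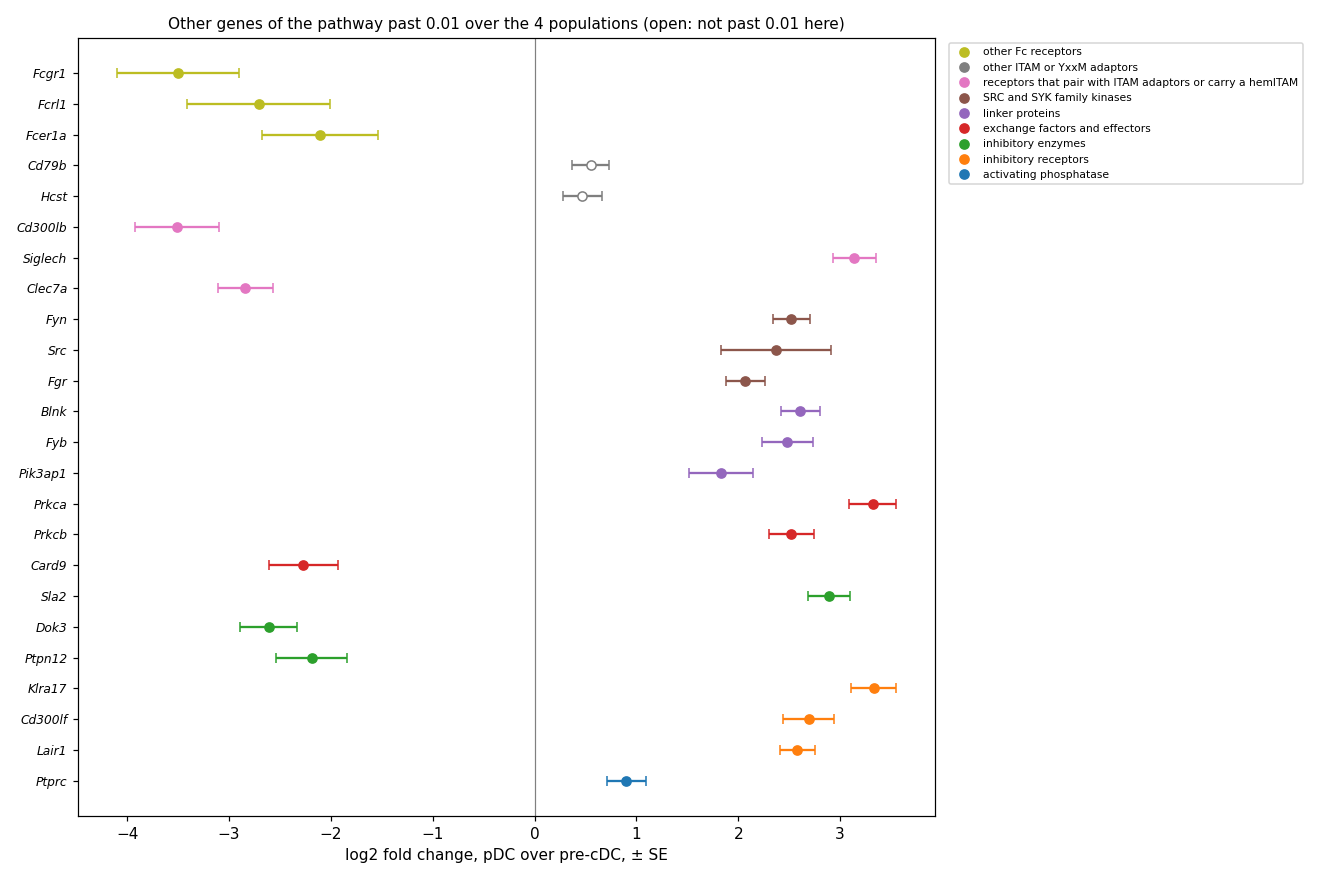
Log2 fold change of pDCs over pre-cDCs with its SE (bars) for the genes of each role with the largest change among those past the cutoff across the 4 populations (at most 3 a role), coloured by role. The Fc receptors shown lie left of 0 (-3.50 to -2.11), and the kinases, linkers and inhibitory receptors shown lie right of 0 (1.83 to 3.33).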

How the data were processed

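RNA of sorted BM populations was sequenced by SCRB-seq. The authors processed reads with zUMIs and STAR (mm10, Ensembl annotation of GRCm38) and deposited raw counts per gene and well, and whether these are reads or molecular identifiers is not given in the sources used here. Genes whose counts averaged below 1 were dropped (6461, leaving 15293). The remainder went, after TMM scaling, into a single robust quasi-likelihood fit of the 12 libraries in edgeR 4.0.16 (R 4.3.3) without covariates. P-values were adjusted by Benjamini-Hochberg over every gene in the fit and read at 0.01. Populations followed the matched wells, and every member was also tested by deposited label. CPM are TMM-scaled, and log2 CPM used a prior count of 2. The steps were tested on simulated data.

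The 8 members and the lists were chosen with earlier results of these data known. From each pathway role, at most the 3 genes with the largest difference of pDCs from pre-cDCs among those past the cutoff were named, and for each member the 2 genes most like it. Exceptions are Fcgrt, marker genes and Xist. Gene positions are those of GENCODE vM21 (GRCm38), and 21410 of 21754 identifiers had a symbol. The depth of 1801463 to 5995971 counts sets the precision of low genes such as Fcgr3. Alternatives were DESeq2 1.42.0 tests and size factors, other filters, a cutoff of 0.05, thinning, a replicate block, fits of 6 libraries and leaving out libraries.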

Additional observations from a re-analysis of the deposited data

How the results depend on the processing

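Of the counts of genes called and their alternatives, 154 stayed within 1.5 times of the reported count, 12 were higher and 3 lower. The step from pre-cDCs to lo-lo, with 0 of 8 genes called, gave 1 (Fcrla) with no filter on low counts (3.37% of all genes), 1 (Fcrla) with libraries thinned to the smallest total (2.63%), 2 (Syk and Fcrla) at a cutoff of 0.05 (5.81%) and 0 to 2 when 1 library was left out. The step from lo-lo to lo-hi gave 2 at a cutoff of 0.05 (8.71%) and 2 in a fit of only the 6 libraries (7.77%). The step from lo-hi to pDCs gave 1 (Fcgr3) with no filter (1.58%) and 1 (Fcgr3) in the fit of 6 libraries (1.41%). Between lo-hi and pre-cDCs, leaving out 1 library gave 3 to 5 genes, with 3 without pre-cDC 1 (A1) or lo-hi 1 (A3), and 3 without the 4 libraries numbered 3 (9.17%). The last setting and the removal of A1 and A5 were chosen after seeing the data.

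Whether the replicate numbers pair the libraries is not settled. Deviations of same-numbered libraries had correlations from -0.15 to 0.308 (18 pairs, mean 0.118, against -0.059 for other numbers), 10 of 12 libraries correlated best with their own number, and the libraries numbered 3 share low Xist. With the replicate block the F-test called 6 of 8 members, gaining Fcgr3 (24.2% of all genes), the step from pre-cDCs to lo-lo 2 (Syk and Fcrla, 4.81%), the step from lo-hi to pDCs 1 (Fcgr3, 2.25%) and pDCs against lo-lo 4, gaining Fcgr3 (16.8%).

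Of the single differences, 29 changed sign, none of them past the cutoff in the reported fit. The difference of Plcg2 between pDCs and lo-lo, near 0, was 0.02 with DESeq2 size factors and with DESeq2, 0.03 with no filter and with filterByExpr, 0.01 with the block, 0.04 in the fit of 6 libraries, -0.04 to 0.06 when single libraries were left out, 0.01 without number 3 and 0.04 without A1 and A5. Plcg2 was 0.00 for lo-hi minus lo-lo without number 3. Btk, lo-lo minus pre-cDC, was -0.02 after thinning, -0.04 (without pre-cDC 3) to 0.09 when 1 library was left out and -0.05 without number 3, and its pDC minus pre-cDC difference was 0.00 without A1 and A5. Fcer1g, pDC minus lo-hi, ranged from -0.16 to 0.05 (without pDC 3) when 1 library was left out and was 0.02 without number 3. Tyrobp ranged from -0.00 (without pDC 1) to 0.25 for pDC minus lo-hi and was -0.03 for lo-lo minus pre-cDC without A1 and A5. Fcgr3 moved furthest: without A1 and A5, lo-lo stood 0.71 and lo-hi 1.05 above the remaining pre-cDC library, and with 1 library left out the difference of lo-hi from pre-cDCs ranged from -0.59 to 0.14 (without A1). The cause was not tested. Fcgr3 between pDCs and pre-cDCs was called in 4 of the 12 removals of 1 library, with adjusted p up to 0.0633, and Fcer1g in 8 of 12.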
